A study of Rattus norvegicus with 43 samples.

Results

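A7r5 cells kept in excess folic acid were compared between day 21 and day 14 of culture. The comparison rests on 10 of the 43 arrays of the series, 5 of day 21 and 5 of day 14, chosen by the dose and the day in their titles. A7r5 is an established line of smooth muscle cells from the aorta of rat embryos, and its total RNA was hybridised to Affymetrix rat expression arrays. The excess medium was a custom-made DMEM with 100 ng/ml folic acid. Sufficient medium (10 ng/ml) and deficient medium (2.5 ng/ml), each with 5 arrays of day 21 and 5 of day 14, were used to ask where the change in excess medium differed, and the 4 excess arrays of day 7, the earliest day sampled, give an earlier level. The labels name no other agent and no genetic change, so all groups share the same line, and results from 1 line of cultured cells need not hold in a vessel wall. The labels give replicates a number and nothing more. If replicates were repeat preparations of the same culture, the p-values below measure technical spread.

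Vascular smooth muscle cells in culture divide until they fill the dish, and then leave the cell cycle and lay down matrix. Bone morphogenetic proteins (BMPs) and transforming growth factor beta act on such cells through receptor kinases and Smad proteins, and the Id genes, whose products bind and block helix-loop-helix transcription factors, are classic targets of the BMP branch. Folic acid feeds the one-carbon units used to make thymidylate, purines and methionine.

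Each value is a log2 expression level, so a difference of 1 is a change of 2-fold. The median of an array lay between 3.658 and 3.725, and values near or below 4 lie close to background, where fold changes are understated. Replicate arrays correlated at 0.9939 to 0.9971 at day 21 and at 0.9926 to 0.9978 at day 14. The titles also carry a serial number, whose meaning the labels do not give, and serial 22 stands on 3 arrays and serial 50 on 2. Reading the serials as 2 array series divided at 45 is an assumption made here. Serials up to 45 hold 3 arrays of day 21 and 2 of day 14, and serials above 45 hold 2 of day 21 and 3 of day 14, and values within each of these sets are given on that assumption. Day 14 replicate 6 stood apart from the other 4 day 14 arrays on the third principal component (-10.6, against -2.7 to 3.3), and it carries serial 50, as does an array of sufficient medium at day 21. The level of the 3′ probe set of beta-actin minus that of its 5′ probe set, a measure of RNA integrity, was 1.76 to 2.79 at day 21 and 1.40 to 2.80 at day 14. All 10 smooth muscle markers were measured. Among them Tagln averaged 13.88 at day 21 and 13.95 at day 14, and Acta2 13.60 and 13.66 at the same days. None of the 5 adipocyte markers passed the filter on low values, and none of 6 epithelial markers (Epcam, Cdh1, Krt19, Krt5, Cldn4 and Cldn7) did. The epithelial genes Krt7, Krt8, Krt14 and Dsp passed it, with Krt7 at 9.82 at day 21 and 10.45 at day 14. Of the 6 endothelial markers on the array only Vwf did, at a level below 4 at both days.

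At day 21, compared with day 14, all measured genes of mitosis and 14 of 22 measured genes of BMP and transforming growth factor beta signalling were lower in excess medium, and 11 of 19 sterol synthesis genes and 9 of 17 interferon response genes were higher. Apart from the sterol list, these lists moved the same way in the other media. In sufficient and deficient medium 27 and 29 mitosis genes were lower and 0 higher in both. In the BMP list 15 and 13 were lower and 3 and 4 higher. Of the interferon genes 8 and 9 were higher and 2 lower in both. Of 9093 genes tested, 2106 (23.2%) changed at an adjusted p under 0.05. Of these 1083 (11.9%) were higher and 1023 (11.3%) were lower at day 21, and a list whose share of calls lies near these values shows nothing about that list. At least 1.5-fold changes were found for 488 genes (5.37%), 240 of them higher and 248 lower. The median change over all genes tested was 0.022 on the log2 scale. Within serials up to 45 alone 1340 genes passed, and 1290 of them had the same sign in serials above 45. Within serials above 45 alone 637 passed, and 632 of them had the same sign in serials up to 45. Both fits used all arrays of their set, and the set above 45 is the smaller and has less power. Without day 14 replicate 6 the count was 1839. Leaving it out moved many of the list counts below, and the following are examples. Ribosomal protein genes had 3 rises in place of 5. DNA repair and DNA and histone methylation each had 1 rise in place of 2. Folate genes and neural and endocrine genes each had 1 fall in place of 2. DNA replication had 9 falls in place of 13. Lysosome and autophagy had 5 rises in place of 7, interferon response 8 in place of 9 and chemokines 9 in place of 10. The methionine cycle had 3 rises and 3 falls in place of 4 each, and sterol synthesis gained 1 fall.

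Some named genes passed over all arrays and not within a set of serials. Atp5mc3, Blm, Cdkn2a, Ctsh, Ezh1, Itga7, Myh2, Nolc1, Orc1, Rps9, Sdf2l1, Shmt2 and Trpc1 passed within neither. Adam19, Aldh1l1, Ccl2, Ctps1, Dsp, Gabarapl1, Gadd45b, Lpl, Ndufa2, Rasl12 and Rpl14 did not pass within serials above 45, and Fzd4, Igf2, Pdia4 and Tcf7 did not pass within serials up to 45. In a fit of the 10 compared arrays alone, Adam19, Atp5mc3, Cdkn2a, Rpl14, Rps9, Tcf7 and Trpc1 lost their calls.

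The genes of largest fold change were named on condition that their groups did not overlap, so for them the lack of overlap was fixed by the choice. The deepest falls were in 2 Id genes. Id2 read 6.61, 6.59, 6.68, 6.12 and 6.49 at day 21, against 11.19, 10.79, 11.59, 11.42 and 11.37 at day 14. Every day 21 array lay more than 4 log2 units below every day 14 array, and the change was -4.77 ± 0.15 (SE; adjusted p = 3.1e-25), or 27.4-fold. Id1 read 6.66, 6.14, 5.84, 6.01 and 5.67 at day 21, against 9.96, 10.04, 10.13, 10.21 and 10.33 at day 14. The 2 groups did not overlap, and Id1 fell by 4.07 ± 0.10 on the log2 scale, or 16.8-fold (adjusted p = 1.1e-28). Id3, a further member of this family, averaged 9.35 at day 21 and 11.07 at day 14 (change -1.72, adjusted p = 1.7e-12).

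Smad9 encodes a Smad protein that carries BMP signals to the nucleus. It read 4.45, 4.17, 4.67, 4.31 and 4.21 at day 21, against 6.41, 6.49, 6.25, 6.44 and 6.66 at day 14, without overlap (change -2.09 ± 0.13, adjusted p = 4.8e-16). Of the 22 measured genes of BMP and transforming growth factor beta signalling, 14 fell, 2 rose and 6 did not pass, with a median change of -0.42 against 0.022 for all genes. The mean of the 22 genes was 8.33 to 8.38 on the day 21 arrays and 9.06 to 9.18 on the day 14 arrays. Ligands were among those that fell (Tgfb2 by 0.65, Tgfb3 by 0.46), as were secreted antagonists (Fstl3 by 1.13, Grem1 by 0.60, Fst by 0.30), the decoy receptor Bambi (by 0.38) and the receptor Bmpr1a (by 0.48). The receptor Tgfbr1 rose by 0.36 and the ligand Gdf10 by 0.51. The receptors Bmpr2 and Acvr1 changed by 0.06 and -0.02 (adjusted p = 0.84 and 0.92), and the inhibitory Smad genes Smad6 and Smad7 by -0.21 and -0.61 (adjusted p = 0.31 and 0.076). Within serials up to 45 the median was -0.44, and within serials above 45 it was -0.37.

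Atoh8, a helix-loop-helix transcription factor, read 2.43, 2.20, 2.72, 2.73 and 2.07 at day 21, against 5.94, 5.95, 6.26, 5.76 and 6.06 at day 14. The day 21 values are at background, so the change of -3.57 ± 0.11 (adjusted p = 6.1e-26) is a low estimate. Prss35, a secreted protein related to serine proteases, read 6.04, 6.36, 5.27, 5.00 and 6.05 at day 21, against 8.75, 8.49, 9.41, 8.88 and 8.94 at day 14. Its spread was wide, with an SD of 0.58 at day 21 and 0.34 at day 14, yet the groups stayed more than 2 log2 units apart (change -3.15 ± 0.26, adjusted p = 1.7e-12).

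Serpinb7, a member of the serine protease inhibitors, read 6.72, 7.15, 7.42, 6.21 and 7.09 at day 21, against 10.11, 10.10, 10.01, 9.54 and 9.97 at day 14 (change -3.03 ± 0.18, adjusted p = 1.9e-16). Dhrs3, an enzyme that reduces retinal to retinol, averaged 3.46 ± 0.21 at day 21 and 5.73 ± 0.17 at day 14 (SD, n = 5 each; limma adjusted p = 4.6e-16). Neither gene's groups overlapped. Cgnl1, a protein of cell junctions, and Prnd, a relative of the prion protein, each fell by 1.86 (adjusted p = 3.6e-14 and 4.1e-18).

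**Figure D1:**
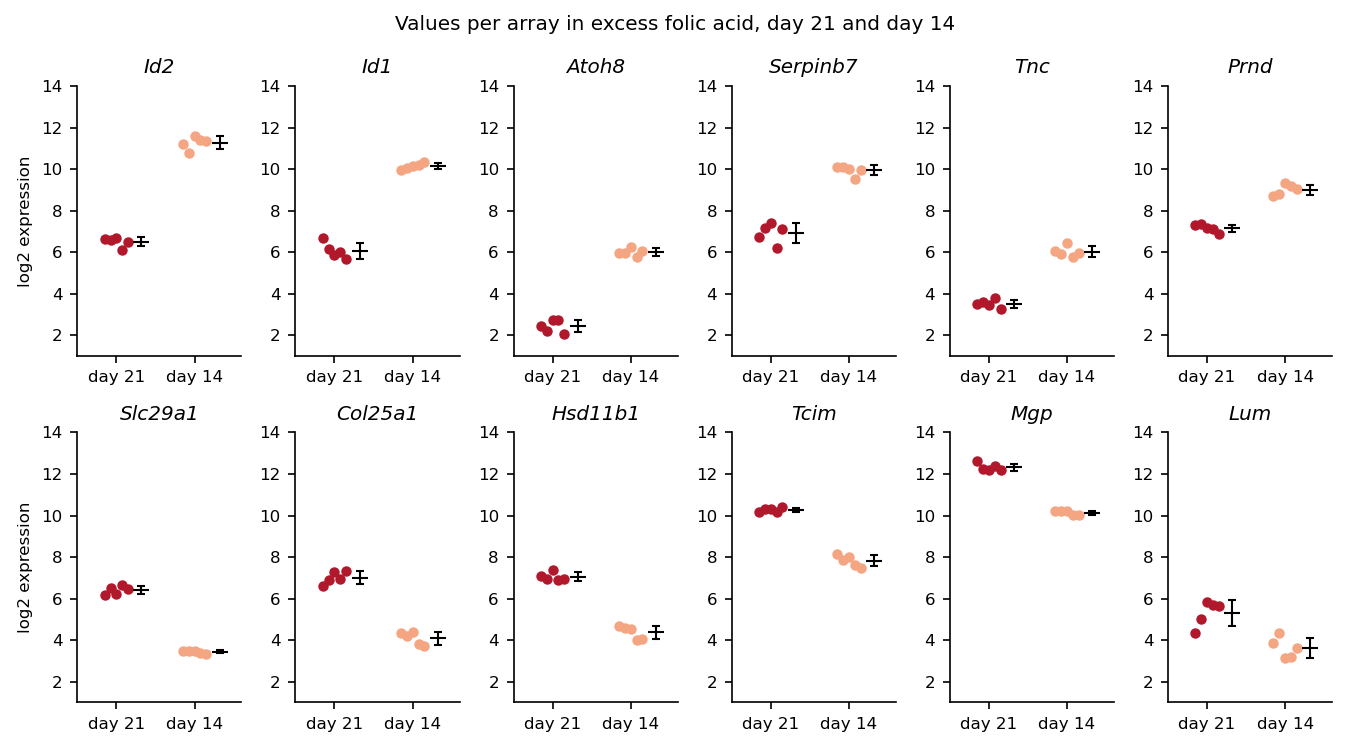
Log2 expression of 12 genes on each array in excess folic acid, with day 21 at the left and day 14 at the right of each panel. Points are arrays, and the bar beside them is the mean with its SD (n = 5 each). Id2, Id1, Atoh8, Serpinb7, Tnc and Prnd lie lower at day 21, and Slc29a1, Col25a1, Hsd11b1, Tcim, Mgp and Lum lie higher. Lack of overlap was a condition for choosing them, and Lum passed the filter on low values through the excess arrays.

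Slc29a1 and Col25a1 had the highest fold changes among the genes that rose, both from day 14 levels near background, so their order cannot be read. Slc29a1, which encodes an equilibrative nucleoside transporter, read 6.18, 6.50, 6.23, 6.65 and 6.46 at day 21, against 3.50, 3.47, 3.49, 3.40 and 3.32 at day 14. It was near background at day 14 and above it on all 5 arrays of day 21, and the change was 2.97 ± 0.10 (adjusted p = 5.4e-24). Hsd11b1, the enzyme that turns inactive into active glucocorticoid, read 7.11, 6.93, 7.40, 6.90 and 6.94 at day 21, against 4.67, 4.59, 4.54, 4.02 and 4.05 at day 14 (change 2.68 ± 0.11, adjusted p = 4.6e-21). The groups did not overlap.

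Tcim, a small regulator of transcription, read 10.17, 10.33, 10.31, 10.16 and 10.39 at day 21, against 8.14, 7.87, 8.02, 7.60 and 7.49 at day 14 (change 2.45 ± 0.17, adjusted p = 2.9e-14). It was higher on every day 21 array than on any day 14 array. Abcg1, a transporter that exports cholesterol from cells, rose by 1.93 ± 0.13, Eepd1 by 1.71 ± 0.13, Lmcd1, a LIM-domain protein, by 1.68 ± 0.10 and Ptgds, a prostaglandin D synthase, by 1.59 ± 0.12 (adjusted p at most 2.6e-13 for each).

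All 34 measured genes of mitosis fell. Their median change was -0.71, against 0.022 for all genes, and single changes ran from -1.10 to -0.44. The mean of the 34 genes was 8.14 to 8.24 on the day 21 arrays and 8.86 to 9.05 on the day 14 arrays, and 33 of the 34 genes had no overlap between the groups, against 14.6% of all genes tested. The median was -0.72 within serials up to 45 and -0.71 within serials above 45, where 32 and 24 genes passed, and all 34 passed again without day 14 replicate 6. Cdca3, which promotes entry into mitosis, read 7.85, 7.90, 8.29, 8.08 and 8.31 at day 21, against 9.51, 9.21, 9.13, 9.05 and 9.03 at day 14 (change -1.10 ± 0.13, adjusted p = 2.1e-08). Kif20a, a kinesin of the central spindle, read 8.55, 7.93, 7.99, 8.05 and 8.06 at day 21, against 9.05, 9.00, 9.34, 9.15 and 9.17 at day 14 (change -1.03 ± 0.17, adjusted p = 1.2e-05). Day 21 replicate 1 was the highest of its group for Kif20a and still lay under every day 14 array.

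The cyclins Ccnb1 and Ccnb2 fell by 0.89 and 0.74, the kinases Plk1 and Aurka by 0.97 and 0.83, the checkpoint kinase gene Bub1b by 0.99, the transcription factor Foxm1 by 0.68 and the proliferation marker Mki67 by 0.47. The smallest fall of the list was that of Mad2l1, a part of the spindle checkpoint, at 0.44 (adjusted p = 0.0014).

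**Figure D2:**
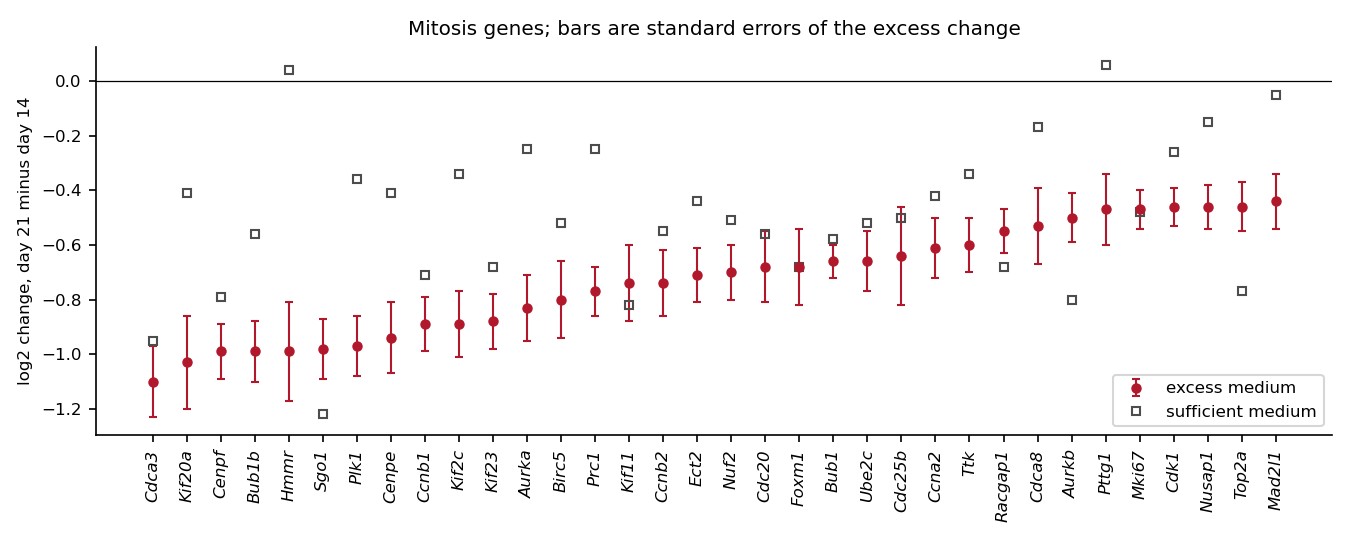
Log2 change from day 14 to day 21 of the 34 measured mitosis genes. Filled circles are excess medium with standard errors, and open squares are sufficient medium. All 34 excess values lie below 0, between -1.10 and -0.44.

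The promoters of mitosis genes are known to carry a cell cycle homology element (CHR, letters TTTGAA) near a CCAAT box, through which DREAM and MuvB complexes act. RefSeq windows of the GRCr8 assembly, 300 bases running from 250 before to 50 after the annotated start, were found for 29 of the 34 mitosis genes and searched on both strands. TTTGAA was present in 19 of the 29 (65.5%), against 11.4% of 7694 windows of genes tested and 18.1% of all 27457 windows. CCAAT was present in 23 of the 29 (79.3%), against 38.7% of windows of genes tested and 37.7% of all windows. Both stood in 16 windows (55.2%), against 4.86% and 7.25%. A match of letters is a description and not a site. The first 280 bases of 2 windows are shown because Cenpf, a kinetochore protein, and Hmmr, a protein of spindle poles, had the largest falls (0.99 each) among mitosis genes with both letter runs. They were chosen after their values were seen. TTTGAA and CCAAT on either strand are in capitals.
Cenpf, chr13:103760857-103761136, minus strand: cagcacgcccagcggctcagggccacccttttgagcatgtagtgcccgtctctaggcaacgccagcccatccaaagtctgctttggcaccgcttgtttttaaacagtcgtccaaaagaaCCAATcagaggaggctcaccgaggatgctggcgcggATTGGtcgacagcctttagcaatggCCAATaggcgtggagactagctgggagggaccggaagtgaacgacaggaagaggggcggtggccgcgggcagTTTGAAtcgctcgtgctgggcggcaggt
Hmmr, chr10:25665186-25665465, minus strand: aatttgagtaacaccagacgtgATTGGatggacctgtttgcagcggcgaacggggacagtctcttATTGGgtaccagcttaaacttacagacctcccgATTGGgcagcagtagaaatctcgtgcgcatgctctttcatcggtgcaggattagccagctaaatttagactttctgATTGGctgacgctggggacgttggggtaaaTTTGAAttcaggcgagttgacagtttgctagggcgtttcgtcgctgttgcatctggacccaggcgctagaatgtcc
The Cenpf window held 1 TTTGAA and 3 CCAAT boxes, and the Hmmr window 1 and 4.

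Genes of DNA replication fell less widely. Of 33 measured, 13 fell, 0 rose and 20 did not pass, with a median change of -0.28. Without day 14 replicate 6 the falls numbered 9. Pole, the catalytic subunit of the leading strand polymerase, read 6.76, 6.65, 6.63, 6.44 and 6.52 at day 21, against 7.55, 7.32, 7.57, 7.70 and 7.36 at day 14 (change -0.90 ± 0.13, adjusted p = 8.9e-07), and the groups did not overlap. The helicase subunits Mcm7 and Cdc45 fell by 0.33 and 0.58, while the other subunits Mcm2, Mcm3, Mcm4, Mcm5 and Mcm6 changed by -0.33 to -0.08 and did not pass. Orc1, of the origin recognition complex, was lower by 0.61 (adjusted p = 0.046), with overlapping groups, and it lost its call without day 14 replicate 1 or 6 or without day 21 replicate 1, 2, 3 or 4.

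In DNA repair, 6 of 20 measured genes fell and 2 rose, against 11.3% and 11.9% of all genes tested. Xrcc2, of homologous recombination, read 5.06, 4.79, 4.48, 4.82 and 4.78 at day 21, against 5.44, 5.37, 5.32, 5.43 and 5.59 at day 14 (change -0.64 ± 0.10, adjusted p = 8e-06). Blm, a helicase of the same process, fell by 0.62 ± 0.15 (adjusted p = 0.0021), though it passed in neither array series alone. The glycosylase Ung rose by 0.31 and the nuclease subunit Ercc1 by 0.30.

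Of 17 measured p53 targets and growth arrest genes 2 rose and 2 fell, which is near the share over all genes (11.9% and 11.3%). Cdkn2a, the gene of a cell cycle inhibitor, read 9.17, 9.14, 8.22, 9.17 and 8.31 at day 21, against 7.45, 7.54, 8.36, 8.72 and 8.49 at day 14, and the groups overlapped (change 0.69 ± 0.23, adjusted p = 0.028). The gene passed in neither array series alone, and it lost its call without any 1 of day 14 replicates 1 and 3 and day 21 replicates 1, 2 and 4. Gadd45b, a stress sensor, fell by 0.52 ± 0.06 (adjusted p = 5.4e-08).

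Matrix genes changed in both directions. Tenascin C (Tnc), a glycoprotein of remodelling matrix, read 3.49, 3.59, 3.44, 3.78 and 3.28 at day 21, against 6.06, 5.90, 6.44, 5.75 and 5.98 at day 14. It stood near background at day 21, and the change was -2.51 ± 0.13 (adjusted p = 1.1e-18). Ltbp2, a latent transforming growth factor beta binding protein of elastic fibres, read 9.45, 9.48, 9.46, 10.02 and 8.94 at day 21, against 11.04, 11.25, 11.53, 11.42 and 11.40 at day 14 (change -1.86 ± 0.14, adjusted p = 2.6e-13). Fbln2, a fibulin, fell by 1.71. In the list of elastic fibres and matrix glycoproteins 8 of 26 measured members fell and 3 rose, against 11.3% and 11.9% of all genes tested. Among the rises were Nid2, a basement membrane nidogen (0.56), and Postn, periostin (0.15). Elastin (Eln) changed by -0.22 (adjusted p = 0.71).

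Among collagens and their modifying enzymes 10 of 25 fell and 3 rose, with a median of -0.24 (11.3% of all genes tested fell and 11.9% rose). Col14a1, a collagen that decorates fibrils, read 2.80, 2.78, 3.01, 2.89 and 2.66 at day 21, against 4.07, 4.19, 3.97, 3.75 and 4.17 at day 14 (change -1.20 ± 0.12, adjusted p = 4.3e-10), so it was close to background at day 21. Col12a1, of the same class, fell by 1.00, and the prolyl hydroxylases P4ha1, P4ha2 and P4ha3 fell by 0.46, 0.91 and 0.64. The 3 rises were the chains of the microfibrillar collagen VI. Col6a1 read 6.89, 6.66, 7.01, 6.96 and 6.40 at day 21, against 5.92, 5.74, 5.49, 5.22 and 5.07 at day 14 (change 1.29 ± 0.12, adjusted p = 1.2e-10), Col6a3 rose by 0.76 and Col6a2 by 0.69. The main fibrillar collagen genes Col1a1, Col1a2 and Col3a1 changed by -0.23, -0.11 and 0.07 and did not pass.

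Col25a1, a membrane collagen best known from neurons and from muscle innervation, is not in that list. It read 6.60, 6.91, 7.29, 6.96 and 7.32 at day 21, against 4.32, 4.19, 4.38, 3.79 and 3.74 at day 14, and rose by 2.93 ± 0.16 (adjusted p = 2.4e-17). Of 14 measured proteoglycan genes 3 rose and 5 fell, against 11.9% and 11.3% of all genes tested. Lumican (Lum), a small leucine-rich proteoglycan of collagen fibrils, read 4.33, 5.00, 5.84, 5.68 and 5.63 at day 21, against 3.86, 4.32, 3.15, 3.17 and 3.62 at day 14. The gap between the groups was only 0.01 (change 1.67 ± 0.20, adjusted p = 3.1e-08). Lum passed the filter on low values through the excess arrays, so this test rests on the group that let it in. Ogn, osteoglycin of the same family, fell by 1.15 ± 0.18 (adjusted p = 2.9e-06). Sulf1, which trims sulphate from heparan sulphate, read 4.40, 4.34, 3.30, 4.05 and 3.75 at day 21, against 4.93, 5.23, 5.60, 6.33 and 6.81 at day 14, and fell by 1.81 ± 0.26.

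Of 14 measured matrix proteases and inhibitors 1 rose and 2 fell, a share of calls near that of all genes tested (23.2%). The rise was that of Mmp2, the gelatinase of vessel walls, which read 6.11, 5.66, 5.83, 6.09 and 6.08 at day 21, against 4.41, 4.29, 4.65, 4.43 and 4.36 at day 14 (change 1.53 ± 0.15, adjusted p = 1.5e-10). Every day 21 value was at least 1 log2 unit above every day 14 value. Its membrane-bound activator Mmp14 fell by 0.35. Adam19, a membrane protease, was lower by 0.41 ± 0.12 (adjusted p = 0.011) with overlapping groups. It lost its call without day 14 replicate 4 and with its probe set of largest variance.

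Mgp, the matrix Gla protein that inhibits calcification of arteries, rose through the whole culture in excess medium. It averaged 4.69 ± 0.43 at day 7 (n = 4), 10.14 ± 0.10 at day 14 and 12.33 ± 0.18 at day 21 (SD, n = 5 each), and the change between the last 2 days was 2.19 ± 0.13 (limma adjusted p = 5.9e-17). Mgp rose by 2.32 over the same days in both sufficient and deficient medium. The differences of change, -0.13 in both tests, did not pass (limma adjusted p = 0.72 and 0.68). Of the 7 measured calcification genes, Mgp rose and Enpp1, which makes the mineralization inhibitor pyrophosphate, fell by 0.65 ± 0.08 (adjusted p = 1.2e-07). The other 5 did not pass.

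Sterol synthesis genes rose in excess medium. Of 19 measured genes of sterol synthesis and uptake 11 rose and 0 fell, with a median of 0.34, and 17 of the 19 changes lay above 0. Without day 14 replicate 6, 11 rose and 1 fell. The mean of the 19 genes was 6.90 to 7.13 on the day 21 arrays and 6.65 to 6.82 on the day 14 arrays. Insig1, which holds the sterol sensor of the pathway in the endoplasmic reticulum and is itself switched on when sterols are short, read 8.65, 8.69, 8.70, 9.12 and 8.77 at day 21, against 7.77, 7.93, 8.20, 7.96 and 7.93 at day 14 (change 0.83 ± 0.08, adjusted p = 2e-10). Msmo1, a sterol demethylase, read 10.48, 10.30, 10.21, 10.35 and 10.53 at day 21, against 9.79, 9.51, 9.81, 9.81 and 9.76 at day 14 (change 0.64 ± 0.10, adjusted p = 2.7e-06). Neither gene's groups overlapped. The early enzymes Idi1 and Fdps rose by 0.60 and 0.41, and the late enzymes Dhcr7 and Cyp51 by 0.57 and 0.26. The rate-setting epoxidase Sqle and the pathway's transcription factor Srebf2 changed by 0.21 and 0.12 (adjusted p = 0.25 and 0.61).

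**Figure D3:**
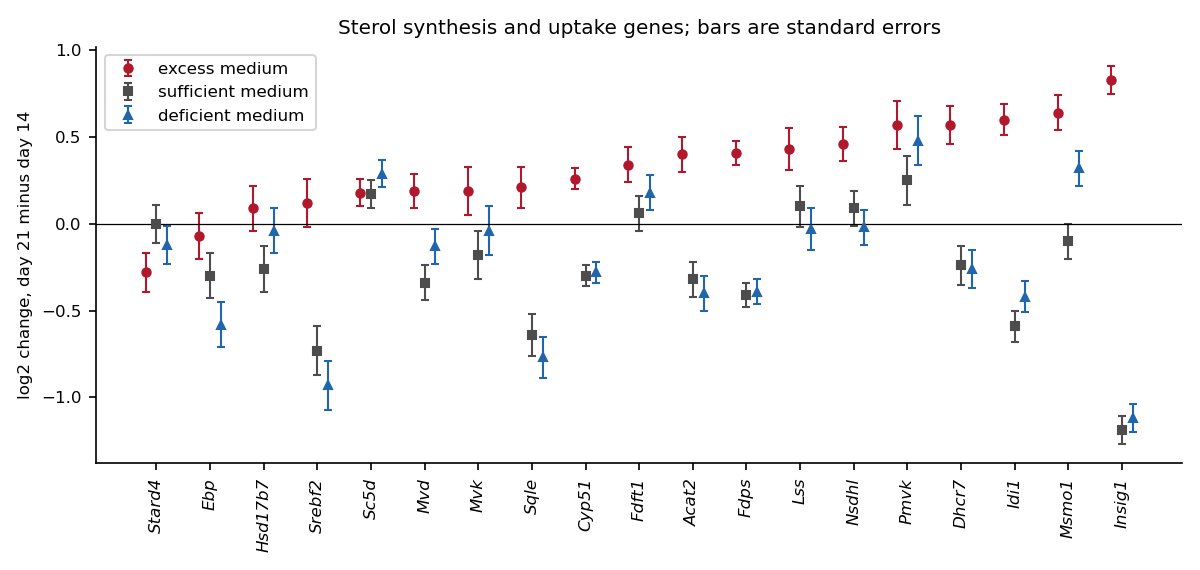
Log2 change from day 14 to day 21 of the 19 measured genes of sterol synthesis and uptake in excess, sufficient and deficient medium, with standard errors. Of the excess values 17 lie above 0. Insig1 is 0.83 in excess medium, against -1.19 in sufficient and -1.12 in deficient medium.

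The same list had more falls than rises in the other media. In sufficient medium 0 of the 19 rose and 8 fell (median -0.26), against 17.9% and 16.7% of all genes tested. In deficient medium 3 rose and 8 fell (median -0.13), against 20.9% and 17.9%. The change in excess medium exceeded that in sufficient medium for 10 of the 19 genes, against 3.94% of all genes tested in that direction, and it exceeded that in deficient medium for 9, against 6.39%. No member differed in the opposite direction. For sufficient medium the count was again 10 without the 3 sufficient arrays that stand apart, and it was 8 within serials up to 45. For deficient medium it was 8 without the 2 deficient arrays that stand apart, and 9 within serials up to 45. A CCAAT box stood in 12 of 15 RefSeq promoter windows of the list (80.0%, against 38.7% of windows of genes tested), and the core of a sterol element, CACCCCAC, in 1 of 15 (6.67%, against 2.25%).

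Lipid storage and oxidation genes rose in 6 and fell in 2 of 25 cases, against 11.9% and 11.3% of all genes tested. Scd2, a desaturase that makes monounsaturated fatty acids, read 10.79, 11.00, 10.92, 11.20 and 11.10 at day 21, against 9.53, 9.76, 9.83, 9.76 and 9.67 at day 14. The groups were about 1 log2 unit apart at their closest (change 1.29 ± 0.09, adjusted p = 2.3e-14). The elongase Elovl6 fell by 0.58, and Lpl, lipoprotein lipase, by 0.61 ± 0.11 (adjusted p = 8.2e-05).

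Of 24 measured contractile genes of smooth muscle 2 rose and 3 fell, with a median of -0.07, and this share of calls is near that of all genes tested (23.2%). The members called went both ways. Pln, phospholamban, the brake of the calcium pump, read 11.84, 11.58, 11.38, 11.41 and 11.58 at day 21, against 10.62, 10.52, 10.48, 10.64 and 10.46 at day 14 (change 1.01 ± 0.13, adjusted p = 1.1e-07). Desmin (Des), the muscle intermediate filament, rose by 0.84 ± 0.14 (adjusted p = 1.4e-05). Calponin (Cnn1) averaged 10.31 at day 21 and 11.08 at day 14, and Myocd, myocardin, the coactivator of smooth muscle genes, averaged 8.54 and 9.36 at the same days, so these fell by 0.77 and 0.82. The myosin heavy chain Myh11 changed by 0.13 (adjusted p = 0.41).

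A7r5 cells also transcribe genes of striated muscle. Of 28 measured sarcomere genes 10 rose and 8 fell, with a median of 0.04, against 11.9% and 11.3% of all genes tested. Without day 14 replicate 6 the counts were 7 and 10 and the median -0.05. Cardiac troponin T (Tnnt2) read 12.70, 12.60, 12.51, 12.65 and 12.47 at day 21, against 11.36, 11.38, 11.49, 11.36 and 11.34 at day 14 (change 1.20 ± 0.06, adjusted p = 8.5e-19). Skeletal alpha-actin (Acta1) read 6.43, 5.86, 5.82, 5.90 and 6.18 at day 21, against 7.00, 7.29, 7.80, 7.38 and 7.36 at day 14 (change -1.33 ± 0.11, adjusted p = 1.7e-12). Neither gene's groups overlapped, and the changes had opposite signs. The embryonic light chain Myl4 rose by 1.04, the perinatal heavy chain Myh8 by 0.78 and Myom2, a protein of the sarcomere's M band, by 0.82, while Klhl41, a sarcomere assembly factor, fell by 1.14 and the embryonic heavy chain Myh3 by 0.46.

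Of the 10 measured myogenic regulators and signals 4 rose and 1 fell, against 11.9% and 11.3% of all genes tested. The fall was that of Myod1, the master regulator of skeletal muscle, at 2.06 to 2.51 at day 21 against 3.22 to 3.35 at day 14, both at background (change -0.96 ± 0.17, adjusted p = 2.4e-05). Itga7, a laminin receptor of muscle, rose by 0.84 ± 0.23 and Igf2, a growth factor of embryonic muscle, by 0.78 ± 0.21, both with overlapping groups (adjusted p = 0.0054 and 0.0047). Itga7 passed within neither set of serials, and Igf2 did not pass within serials up to 45 (0.65, adjusted p = 0.18).

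Interferon response genes rose. Of 17 measured 9 rose and 0 fell, all 17 changes lay above 0, and the median was 0.28. The mean of the 17 genes was 6.94 to 7.01 on the day 21 arrays and 6.48 to 6.68 on the day 14 arrays. Ifitm3, a membrane protein that blocks virus entry, read 10.47, 10.27, 10.29, 10.19 and 10.48 at day 21, against 8.93, 9.07, 9.02, 9.05 and 8.84 at day 14 (change 1.36 ± 0.09, adjusted p = 1.1e-14). Psmb9, a subunit of the immunoproteasome, rose by 0.92 ± 0.14 (adjusted p = 1.2e-06), the transcription factor Irf1 by 0.66 and the ubiquitin-like protein Isg15 by 0.58. Of 8 leukocyte markers Cd14, at 6.37 at day 21 and 6.38 at day 14, and Cd3e, at 3.63 and 3.82 at the same days, passed the filter, and neither was called. The other 6 averaged between 2.07 and 2.74 at day 21 and between 2.08 and 2.85 at day 14.

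Of 18 measured chemokine, complement and acute phase genes 10 rose and 1 fell, with a median of 0.36. Ccl2, a chemokine that draws monocytes, read 5.52, 5.63, 5.36, 4.99 and 5.14 at day 21, against 4.03, 4.20, 4.11, 3.95 and 3.90 at day 14, without overlap (change 1.29 ± 0.23, adjusted p = 3.2e-05). C1s, a protease of the classical complement pathway, read 8.03, 8.36, 8.49, 8.14 and 8.51 at day 21, against 7.40, 7.27, 7.03, 6.96 and 6.51 at day 14 (change 1.27 ± 0.12, adjusted p = 1.9e-10), and its partner C1r rose by 0.78. The cytokine Il6 rose by 0.94, and Tnfaip6, a hyaluronan-binding protein, fell by 1.02.

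Immediate early genes, which respond to growth signals and stress within minutes, rose in 11 and fell in 2 of 28 cases (median 0.24). Fos read 6.55, 7.66, 7.13, 6.99 and 7.29 at day 21, against 5.64, 5.74, 5.26, 4.92 and 5.02 at day 14 (change 1.81 ± 0.23, adjusted p = 5.5e-08). Dusp6, a phosphatase that switches off ERK, rose by 1.05 ± 0.10, and Nr4a1, Egr2 and Egr1 rose by 0.97, 0.86 and 0.83. Klf4 and Dusp1 fell by 0.50 and 0.32.

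In folate transport and the folate cycle 1 of 17 measured genes rose and 2 fell, not above the shares over all genes tested (11.9% and 11.3%). The median change was -0.06. Mthfd2, a mitochondrial enzyme of one-carbon supply, read 6.90, 6.53, 6.49, 6.56 and 6.71 at day 21, against 7.19, 7.74, 7.35, 7.01 and 7.48 at day 14 (change -0.72 ± 0.14, adjusted p = 0.00011). Aldh1l1, which oxidizes formyl-tetrahydrofolate, rose by 0.63 ± 0.13 (adjusted p = 0.00039). Shmt2, which takes one-carbon units from serine, was lower by 0.35 ± 0.13 (adjusted p = 0.049). The groups of Shmt2 did not overlap, at 7.24 to 7.65 at day 21 and 7.74 to 7.84 at day 14, yet its call was lost when any 1 of 8 arrays was left out, all but day 21 replicates 4 and 5. Thymidylate synthase (Tyms) averaged 6.01 ± 0.17 at day 21 and 5.95 ± 0.10 at day 14 (change 0.06, limma adjusted p = 0.83, n = 5 each). The reduced folate carrier Slc19a1 averaged 3.93 and 4.14 and the folate receptor Folr1 4.16 and 4.09 at the same days, both near background and both without a call (adjusted p = 0.17 and 0.72).

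The methionine cycle list held 4 rises and 4 falls among 14 genes, against 11.9% and 11.3% of all genes tested. Sat1, which acetylates spermidine and spermine, read 12.24, 12.30, 12.27, 12.17 and 12.22 at day 21, against 11.16, 10.96, 11.12, 11.17 and 11.04 at day 14 (change 1.15 ± 0.06, adjusted p = 1.1e-17). The polyamine synthesis genes Srm, Sms and Odc1 fell by 0.38, 0.33 and 0.22, opposite in direction to Sat1. Cth, the last enzyme of cysteine synthesis, rose by 0.71 ± 0.12 (adjusted p = 2.5e-05).

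Of 21 measured genes of purine and pyrimidine synthesis 1 rose and 4 fell, a share of calls near that of all genes tested (23.2%). Rrm1, the large subunit of ribonucleotide reductase, fell by 0.45 ± 0.05 (adjusted p = 1.2e-08) and Ctps1, which makes CTP, by 0.40 ± 0.06 (adjusted p = 6.2e-06). The DNA and histone methylation list held 2 rises and 1 fall among 21 genes, not above the share of calls over all genes tested. Ezh2, the methyltransferase of the polycomb complex, fell by 0.61 ± 0.08 (adjusted p = 3.4e-07) and its relative Ezh1 rose by 0.43 ± 0.14 (adjusted p = 0.02), with the call of Ezh1 lost without day 14 replicate 5 or 6 or day 21 replicate 3. H19, an imprinted long noncoding RNA, read 7.96, 7.79, 7.84, 7.97 and 7.78 at day 21, against 9.35, 8.92, 9.16, 9.20 and 8.86 at day 14 (change -1.23 ± 0.14, adjusted p = 5.9e-09). Of the 7 measured imprinted genes H19 fell and Igf2 rose.

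Amino acid stress genes, most of them targets of ATF4, fell in 11 and rose in 4 of 27 cases (median -0.17). Phgdh, the first enzyme of serine synthesis, read 9.13, 8.90, 9.06, 9.13 and 8.95 at day 21, against 9.59, 9.81, 10.31, 9.82 and 9.92 at day 14 (change -0.85 ± 0.12, adjusted p = 4.2e-07). The next enzyme Psat1 fell by 0.51, asparagine synthetase (Asns) by 0.46 and the arginine carrier Slc7a1 by 0.70. The rises were those of regulators. Nupr1, a stress-induced chromatin protein, read 13.34, 13.25, 13.11, 13.28 and 13.21 at day 21, against 12.33, 12.33, 12.27, 12.37 and 12.35 at day 14 (change 0.91 ± 0.06, adjusted p = 4.6e-16), Cebpb rose by 0.84, Ddit4 by 0.69 and Ddit3 by 0.41.

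Of 21 measured chaperones of the endoplasmic reticulum 6 fell and 1 rose, against 11.3% and 11.9% of all genes tested. Without day 14 replicate 6 the counts were 3 and 0. Pdia4, a disulphide isomerase, was lower by 0.46 ± 0.15 (adjusted p = 0.026), a call lost without day 14 replicate 3 or 6 or day 21 replicate 3 or 4. Sdf2l1 was lower by 0.30 ± 0.10 (adjusted p = 0.018), a call lost without day 14 replicate 1 or day 21 replicate 2. Among 12 measured heat shock genes of the cytosol and mitochondria Cryab, alpha-B crystallin, fell by 0.64 ± 0.06 (adjusted p = 1.2e-11), and the other 11 did not pass.

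Antioxidant genes changed in both directions, with 8 rises and 7 falls among 30 (median 0.02). Hmox1, haem oxygenase, read 10.54, 10.60, 10.53, 10.42 and 10.36 at day 21, against 9.25, 9.28, 9.57, 9.27 and 9.38 at day 14 (change 1.14 ± 0.09, adjusted p = 6.2e-13). Mgst3, a microsomal glutathione transferase, rose by 1.11 ± 0.10 (adjusted p = 6e-12) and the thioredoxin inhibitor Txnip by 0.84, while the glutathione peroxidases Gpx1 and Gpx7 fell by 0.76 and 0.39. Lysosome and autophagy genes rose in 7 and fell in 2 of 31 cases, all by less than 1.5-fold (11.9% of all genes tested rose and 11.3% fell). The cathepsin Ctsh rose by 0.53 ± 0.12 and the autophagosome protein Gabarapl1 by 0.42 ± 0.06 (adjusted p = 0.0013 and 7.4e-07), and Ctsh passed within neither set of serials (adjusted p = 0.067 up to 45 and 0.19 above 45).

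Energy and ribosome genes moved little. Over all genes tested 11.9% rose and 11.3% fell, and the counts of these lists are to be read against those shares. Of 28 respiratory chain genes 3 rose, by 0.15 to 0.25, and 0 fell, so the rises were near the share over all genes. Ndufa2, of complex I, was higher by 0.25 ± 0.09 (adjusted p = 0.027), a call lost without any 1 of day 14 replicates 4, 5 and 6 and day 21 replicates 1 and 4, and Atp5mc3, of the ATP synthase, was higher by 0.16 ± 0.05 (adjusted p = 0.014), a call lost within each set of serials and in fits of the excess arrays alone. Of 17 measured ribosomal protein genes 5 rose, by 0.12 to 0.19, and 0 fell. Rps9 was higher by 0.19 ± 0.05 (adjusted p = 0.0029), a call lost in the same settings as that of Atp5mc3. Rpl14 was higher by 0.16 ± 0.06 (adjusted p = 0.047), and it lost its call with quantile normalization, with arrays centred on their median and without any 1 of day 14 replicates 1, 3 and 4 and day 21 replicates 1, 2 and 4. Of 27 ribosome biogenesis genes only Nolc1 passed, at 0.23 ± 0.06 (adjusted p = 0.0067), and 2 of its 3 probe sets have the opposite sign.

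Of 30 glycolysis and hypoxia genes 4 rose and 6 fell (median 0.02), against 11.9% and 11.3% of all genes tested. Pfkm, the muscle form of phosphofructokinase, read 8.86, 8.38, 8.54, 8.51 and 8.51 at day 21, against 7.40, 7.66, 7.37, 7.30 and 7.35 at day 14 (change 1.14 ± 0.11, adjusted p = 6.5e-11). Adm, the vasodilator peptide adrenomedullin, rose by 1.01 ± 0.10 (adjusted p = 1.2e-10), and Car9, a carbonic anhydrase, fell by 0.95.

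Genes of signals between cells changed in both directions. Of 23 growth factors and receptors 4 rose and 7 fell, against 11.9% and 11.3% of all genes tested. Fgfr2, a receptor of fibroblast growth factors, read 9.21, 8.67, 8.99, 9.13 and 9.08 at day 21, against 10.11, 10.06, 10.34, 10.04 and 10.03 at day 14 (change -1.10 ± 0.09, adjusted p = 7.1e-13), but its probe set of largest variance did not pass (-0.58, adjusted p = 0.16). Bdnf, a neurotrophin, read 8.35, 8.41, 8.28, 8.40 and 8.10 at day 21, against 8.94, 9.16, 9.53, 9.07 and 9.20 at day 14 (change -0.87 ± 0.10, adjusted p = 8.8e-09). Vegfa and Hbegf fell by 0.43 and 0.81, and Fgf1 and the receptor Pdgfrb rose by 0.82 and 0.61.

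Of 16 genes of Notch and vascular patterning 3 rose and 4 fell, against 11.9% and 11.3% of all genes tested. Sema3c, a guidance molecule of the outflow tract, read 9.29, 8.92, 9.25, 9.17 and 9.21 at day 21, against 10.85, 10.94, 10.81, 10.79 and 10.99 at day 14 (change -1.71 ± 0.07, adjusted p = 5.8e-21). S1pr3, a receptor for sphingosine 1-phosphate, rose by 1.24 ± 0.08 (adjusted p = 3.1e-15). Neither gene's groups overlapped. The Notch ligand Jag1 fell by 0.59. Of 11 Wnt genes 4 rose and 2 fell, to be read against the same shares. The receptor Fzd4 fell by 0.60 ± 0.13 (adjusted p = 0.00038), and the transcription factor Tcf7 rose by 0.73 ± 0.19 (adjusted p = 0.0028) with overlapping groups. The change of Tcf7 was 0.14 within serials up to 45 (adjusted p = 0.74) and 1.26 within serials above 45 (adjusted p = 0.0082), and it did not pass in the 10 compared arrays alone (adjusted p = 0.059).

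Of 24 adhesion receptors 3 rose and 5 fell, against 11.9% and 11.3% of all genes tested. Ncam1, a neural cell adhesion molecule also found on muscle precursors, read 7.25, 7.52, 7.32, 7.22 and 7.18 at day 21, against 8.40, 7.85, 8.72, 8.97 and 8.96 at day 14 (change -1.28 ± 0.22, adjusted p = 1.7e-05). Thy1, a surface glycoprotein of fibroblasts and other mesenchymal cells, read 11.39, 11.29, 11.50, 11.36 and 11.41 at day 21, against 10.36, 10.41, 10.70, 10.58 and 10.44 at day 14 (change 0.89 ± 0.09, adjusted p = 2.8e-10). Of 13 ion channels and pumps 0 rose and 2 fell, not above the share of calls over all genes tested (23.2%). The sodium pump subunit Atp1b1 fell by 0.86 ± 0.07 (adjusted p = 1.7e-12), and the cation channel Trpc1 was lower by 0.28 ± 0.08 (adjusted p = 0.012), a call lost without day 21 replicate 5.

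Some genes that mark other tissues changed too. Of 7 measured fibroblast marker genes 4 rose, Lum and Thy1 among them, and 2 fell. Lum counts among the measured genes only through the excess arrays. In bulk samples fewer cells of a type and less RNA per cell cannot be told apart. Of 6 fibroblast markers on the array Thy1 rose, Pdpn fell (7.95 at day 21 and 8.42 at day 14), and Pdgfra, Dpt, Pi16 and Fap, at 2.36 to 3.44 at day 21 and 2.50 to 3.25 at day 14, were below the filter. The mean of the 6 was 5.01 to 5.16 on the day 21 arrays and 4.87 to 5.17 on the day 14 arrays, and the part of other cells in the rises was not tested. Of 4 measured epithelial genes Krt8 rose by 0.47 and Krt7, Dsp and Krt14 fell by 0.64, 0.59 and 0.34. Scg2, a protein of secretory granules, read 9.01, 9.02, 8.81, 9.36 and 9.38 at day 21, against 8.33, 8.49, 8.47, 8.13 and 8.12 at day 14, and was among 5 neural and endocrine genes, of which it alone rose (0.81 ± 0.10, adjusted p = 3.3e-08) and 2 fell, Uchl1 by 0.64 ± 0.09 and Mbp by 0.24. None of the 3 measured endothelial genes and none of the 3 measured leukocyte genes passed.

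**Figure D4:**
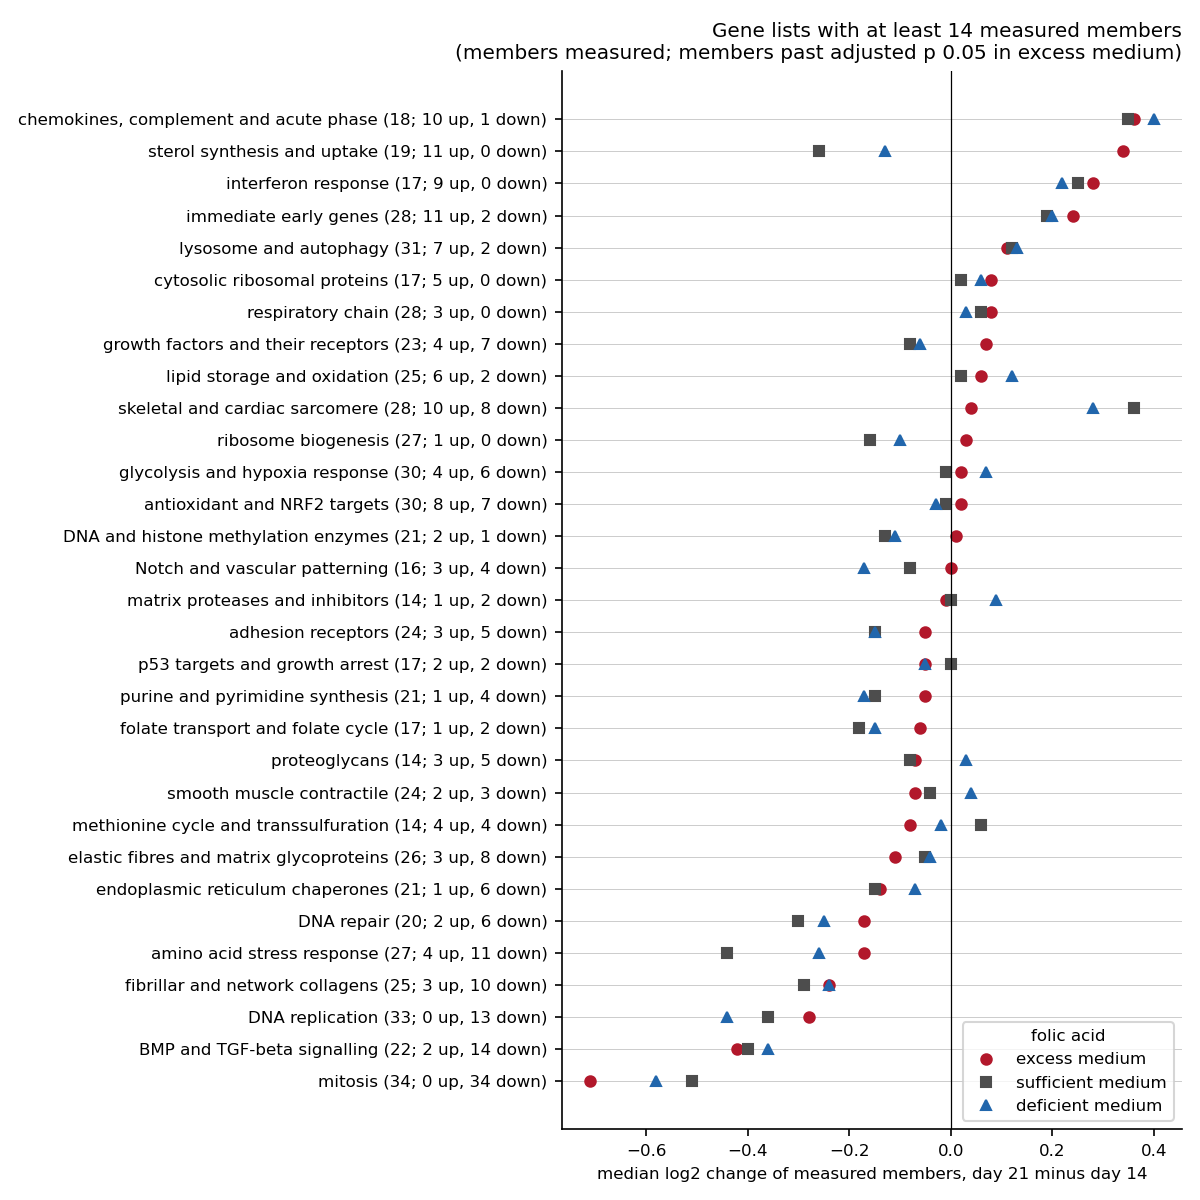
Median log2 change from day 14 to day 21 over the measured members of each gene list with at least 14 of them, in excess, sufficient and deficient medium. Beside each name stand the measured members and, for excess medium, how many rose and fell. Mitosis (-0.71) and BMP and TGF-beta signalling (-0.42) lie lowest in excess medium, and chemokines, complement and acute phase (0.36) and sterol synthesis (0.34) highest.

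The change in excess medium was then set against the change over the same days in the other media. In sufficient medium 3147 genes changed (34.6%), 689 of them at least 1.5-fold (7.58%), and in deficient medium 3530 (38.8%), 802 of them at least 1.5-fold (8.82%). The change in excess medium differed from that in sufficient medium for 783 genes (8.61%), being higher for 358 (3.94%) and lower for 425 (4.67%), and by at least 1.5-fold for 294 (3.23%). It differed from that in deficient medium for 1341 genes (14.7%), being higher for 581 (6.39%) and lower for 760 (8.36%), and by at least 1.5-fold for 485 (5.33%). The first count depends on the sufficient arrays. On the third principal component sufficient day 14 replicates 4 and 5 lay at -10.6 and -5.4, against 9.2 to 14.8 for the other 3, and sufficient day 21 replicate 1 lay at 16.3, against -4.2 to 0.1 for the other 4. Without these 3 arrays 1575 genes differed, and within serials up to 45 alone 392 did. In the deficient medium day 14 replicates 1 and 5 lay at -11.5 and -14.7, against 7.6 to 9.1 for the other 3, and without them 1850 genes differed. Within serials up to 45 alone 974 genes differed from deficient medium.

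Id1, Id2 and Id3 fell in all 3 media, and further in excess medium. Id1 averaged 6.06 ± 0.38 at day 21 and 10.13 ± 0.14 at day 14 in excess medium, against 8.77 ± 0.11 and 10.92 ± 0.07 in sufficient and 9.35 ± 0.12 and 11.08 ± 0.04 in deficient medium (SD, n = 5 each). Its change differed by -1.92 ± 0.14 from that in sufficient and by -2.34 ± 0.14 from that in deficient medium (adjusted p = 2.2e-12 and 5.5e-15). Id2 differed by -2.18 ± 0.22 and -2.38 ± 0.22 in the same tests (adjusted p = 2.7e-09 and 1.6e-10), and Id3 by -0.91 and -1.09 (adjusted p = 0.0022 and 0.00014). Smad9 fell by 1.81 in sufficient and by 1.87 in deficient medium, and its differences, -0.27 and -0.22, did not pass.

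Prnd fell in excess medium and did not pass in the others, and the difference itself passed. It averaged 7.15 ± 0.18 at day 21 and 9.01 ± 0.24 at day 14 in excess medium, against 11.40 ± 0.16 and 11.36 ± 0.13 in sufficient and 11.79 ± 0.04 and 11.66 ± 0.08 in deficient medium (SD, n = 5 each). The differences of change were -1.90 ± 0.14 from sufficient and -1.99 ± 0.14 from deficient medium (adjusted p = 9e-13 and 1.4e-13).

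Several genes rose further in excess medium. Slc29a1 averaged 6.40 ± 0.20 at day 21 and 3.44 ± 0.08 at day 14 in excess medium, against 4.52 ± 0.13 and 3.40 ± 0.07 in sufficient and 4.25 ± 0.29 and 3.15 ± 0.14 in deficient medium (SD, n = 5 each). The differences of change were 1.84 ± 0.15 and 1.87 ± 0.15 (adjusted p = 9.8e-12 and 4.1e-12). Col25a1 differed by 1.91 ± 0.23 from sufficient and by 2.35 ± 0.23 from deficient medium (adjusted p = 1.9e-07 and 1e-09). Hsd11b1 differed by 1.52 ± 0.16 and 1.87 ± 0.16 in the same tests (adjusted p = 1e-08 and 4.3e-11). Lum stood at 5.30 and 3.62 in excess medium at days 21 and 14, against 2.42 and 2.40 in sufficient and 2.24 and 2.09 in deficient medium. It passed the filter on low values through the excess arrays, so its tests between media, and that of its rise, rest on the group that let it in.

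Insig1 changed in opposite directions. It averaged 8.79 ± 0.19 at day 21 and 7.96 ± 0.15 at day 14 in excess medium, against 5.87 ± 0.07 and 7.07 ± 0.10 in sufficient and 5.77 ± 0.15 and 6.89 ± 0.16 in deficient medium (SD, n = 5 each). The differences of change were 2.02 ± 0.12 from sufficient and 1.95 ± 0.12 from deficient medium (adjusted p = 7.3e-16 and 2.5e-15). Scd2 and Nupr1 rose in excess medium and changed by 0.12 and -0.05 in sufficient medium, with differences of 1.17 ± 0.13 and 0.96 ± 0.08 (adjusted p = 2.8e-08 and 1.9e-11).

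Many sarcomere genes had a lower change in excess medium. Of 28 sarcomere genes 10 had a lower change than in sufficient medium, against 4.67% of all genes, and 12 a lower change than in deficient medium, against 8.36%. Only Tnnt2 had a higher one in either test (0.65 and 0.64). Myh2, the fast myosin heavy chain of skeletal muscle, stood at 3.17 ± 0.11 at day 21 and 3.64 ± 0.22 at day 14 in excess medium, against 5.87 ± 0.38 and 4.65 ± 0.39 in sufficient and 6.70 ± 0.32 and 4.35 ± 0.39 in deficient medium (SD, n = 5 each). Its differences of change were -1.69 ± 0.24 and -2.82 ± 0.24 (adjusted p = 5.5e-06 and 4.3e-11). Myh2 passed the filter on low values through the sufficient and deficient arrays, so these tests rest on the groups that let it in. The excess values are at background, and the fall within excess medium (-0.47, adjusted p = 0.043) was lost without any 1 of day 14 replicates 1, 3 and 4 and day 21 replicates 1, 3, 4 and 5. Acta1 changed by -0.11 in sufficient and by 0.15 in deficient medium, with differences of -1.22 and -1.48 (adjusted p = 4.8e-07 and 4.4e-09).

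The smooth muscle list had 7 of 24 genes with a lower change than in sufficient medium, against 4.67% of all genes, and 7 with a lower change than in deficient medium, against 8.36%, and 0 with a higher one in both tests. Mylk, the kinase that starts contraction, differed by -1.02 and -1.17, Cnn1 by -0.66 and -0.65, Myocd by -0.74 and -0.96 and Myh11 by -0.62 and -0.71. Pln differed by -0.88 from sufficient medium. Within the ion channels and pumps 4 of 13 differed from sufficient medium and 5 from deficient medium, all downward (4.67% and 8.36% of all genes did so), among them the sodium-calcium exchanger Slc8a1 (-0.79 and -0.78).

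Rasl12, a small GTPase of the Ras superfamily, fell by 0.57 ± 0.16 in excess medium, while it rose by 1.11 in sufficient and by 1.61 in deficient medium, with differences of -1.68 ± 0.23 and -2.18 ± 0.23 (adjusted p = 2.7e-06 and 6.3e-09). Entrep1 averaged 3.98 ± 0.17 at day 21 and 3.64 ± 0.22 at day 14 in excess medium, against 6.10 ± 0.39 and 3.70 ± 0.15 in sufficient and 5.71 ± 0.15 and 3.44 ± 0.17 in deficient medium (SD, n = 5 each). It stayed at background in excess medium (0.34, adjusted p = 0.063), and its differences were -2.06 ± 0.19 and -1.93 ± 0.19 (adjusted p = 5.1e-10 and 1.3e-09). Entrep1 passed the filter on low values through the sufficient and deficient arrays of day 21. Its tests between media therefore rest on the groups that let it in. Scg2 rose in all media, by 0.81 in excess, 2.50 in sufficient and 2.43 in deficient medium, and its differences were -1.69 ± 0.14 and -1.62 ± 0.14 (adjusted p = 1.9e-11 and 4.3e-11).

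Differences between media were also tested for the cell cycle. Of the 34 mitosis genes 5 fell further than in sufficient medium and 0 fell less, and against deficient medium 7 fell further and 3 less. The share of all genes with a lower change was 4.67% and 8.36%, and with a higher change 3.94% and 6.39%. Without the 3 sufficient arrays that stand apart 8 mitosis genes fell further than in sufficient medium and 1 less, and within serials up to 45 the counts were 3 and 0. Against deficient medium 7 fell further and 0 less within serials up to 45. Hmmr, for example, changed by 0.04 in sufficient medium (adjusted p = 0.89), a difference of -1.03 (adjusted p = 0.0085). Of the 33 replication genes 5 fell less than in sufficient medium and 6 less than in deficient medium, and 0 fell further. Against sufficient medium the first count was 7, with 1 that fell further, without the 3 arrays that stand apart, and 2 within serials up to 45. Mcm7 fell by 0.33 in excess medium, against 0.97 in sufficient medium, a difference of 0.64 (adjusted p = 0.00015).

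Of 17 folate genes 3 had a higher change than in sufficient medium, against 3.94% of all genes, and 3 than in deficient medium, against 6.39%, and 0 a lower one. Within serials up to 45 both counts were 2. Shmt2 was lower by 0.35 in excess medium, and it fell by 1.37 in sufficient and by 1.25 in deficient medium, with differences of 1.03 ± 0.19 and 0.90 ± 0.19 (adjusted p = 0.00022 and 0.00068). Tyms changed by 0.06 in excess medium and fell by 0.46 in sufficient and by 0.78 in deficient medium, and its difference passed against deficient medium alone (0.84 ± 0.20, adjusted p = 0.0035). Mthfd2 fell by 0.89 in sufficient and by 0.53 in deficient medium, and its differences, 0.17 and -0.18, did not pass (adjusted p = 0.65 and 0.59). Of the 27 amino acid stress genes 6 had a higher change than in sufficient medium (3.94% of all genes did) and 7 than in deficient medium (6.39%), and 0 a lower one.

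**Figure D5:**
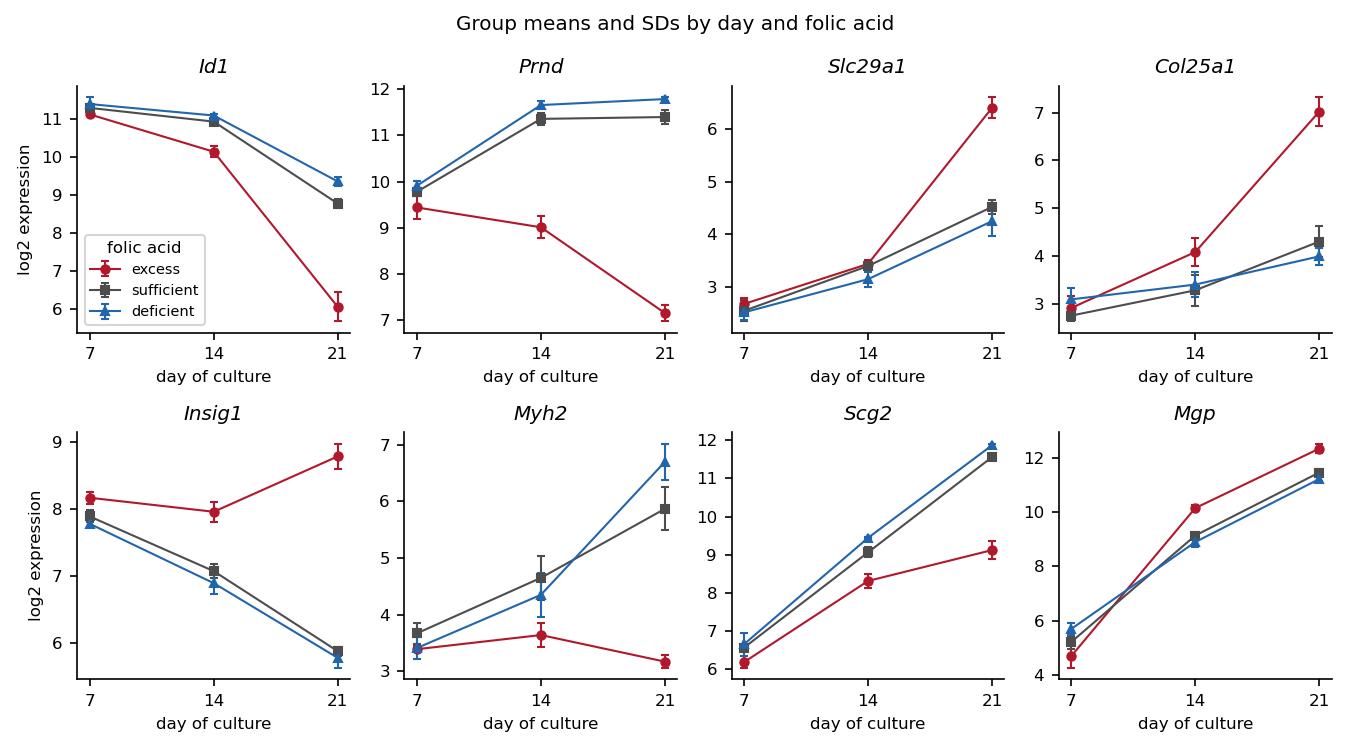
Group means of log2 expression with SDs at days 7, 14 and 21 for 8 genes in excess, sufficient and deficient folic acid (n = 4 or 5 arrays). Id1 lies at 6.06 in excess medium at day 21, against 8.77 in sufficient and 9.35 in deficient medium, while Mgp lies at 12.33, 11.45 and 11.21 in the same order.

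Days 7, 14 and 21 in excess medium place these changes in the whole culture, with the day 14 arrays shared by both steps. Id1 averaged 11.11 ± 0.02 at day 7, 10.13 ± 0.14 at day 14 and 6.06 ± 0.38 at day 21 (SD, n = 4, 5 and 5). Id2 averaged 11.90 ± 0.08, 11.27 ± 0.30 and 6.50 ± 0.22 at the same days, so most of the fall of both came after day 14. Slc29a1 averaged 2.68, 3.44 and 6.40 and Col25a1 2.91, 4.08 and 7.02 at the same days, and since the earlier levels are near background the rise cannot be divided between the steps. Lum averaged 2.04, 3.62 and 5.30, and Scd2 7.93, 9.71 and 11.00. Insig1 averaged 8.17, 7.96 and 8.79, while in sufficient medium it averaged 7.89, 7.07 and 5.87.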

How the data were processed

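The values, as deposited, are on the log2 scale and cover 31099 probe sets on 43 arrays. The submitters' processing notes name GCRMA, a method that subtracts background by probe sequence, normalizes by quantiles and summarizes probe sets, and limma, with no version of either. No scanner files were used here. Groups were taken from titles. Of the probe sets 20826 had 1 gene symbol in the platform annotation, 436 had several, 9780 had none and 57 controls were left out. For each gene the brightest probe set, by its mean across the 43 arrays, was used and kept if above 4 in at least 4 arrays, which left 9093 of 14217 genes. For 2393 genes several probe sets passed. One linear model of 9 group means (34 residual and 4.12 prior degrees of freedom) was fitted in limma 3.58.1 under R 4.3.3. Tests were two-sided, with Benjamini-Hochberg adjustment over all genes and a threshold of 0.05. Errors of changes are standard errors of the model. The fit was also run on simulated data with independent normal noise on each array. That run held no array series and no arrays that stand apart, so it cannot show how these affect the results. Plots and summaries used Python 3.11.15, pandas 2.3.3, numpy 2.4.6 and matplotlib 3.10.9.

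The members, the 43 gene lists (1197 symbols, 769 of them tested) and the tests were chosen with earlier results of these data known. Of the lists, adipocyte markers had 0 measured members. Named genes are the 12 highest and 12 lowest fold changes with no overlap and a mean of at least 5 in the higher group, up to 2 genes per list, the 4 highest and 4 lowest of each difference of change, and 5 folate genes. That rule gave 100 genes. Other list members given as examples were chosen after their values were seen. Same-numbered replicates of day 21 and day 14, of which there are 4 pairs, had correlations of their deviations between -0.368 and 0.417. Replicates 3 and 4, with both arrays in the same set of serials, gave 0.417 and 0.269. Replicates 1 and 5, with arrays in different sets, gave -0.262 and -0.368. The check therefore cannot tell whether the numbers pair the arrays, and the model did not pair them.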

Additional observations from a re-analysis of the deposited data

Results flagged for a closer look

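In 9 of the 200 groups of 5 excess arrays looked at (2 groups for each of 100 named genes), 1 array lay far from the other 4, and chance alone places about 1 in 20 groups there. At day 21 these were Insig1 in replicate 4, at 9.12 against 8.65 to 8.77 in the others, and Kif20a in replicate 1, at 8.55 against 7.93 to 8.06. At day 14 Msmo1, Ndufa2 and Pfkm stood apart in replicate 3, at 9.51 against 9.76 to 9.81, 11.19 against 10.99 to 11.02 and 7.66 against 7.30 to 7.40. Fgfr2 and Tnnt2 stood apart at day 14 in replicate 4, at 10.34 against 10.03 to 10.11 and 11.49 against 11.34 to 11.38. Serpinb7 was low at day 14 in replicate 5, at 9.54 against 9.97 to 10.11, and Eepd1 in replicate 6, at 5.15 against 5.56 to 5.68.

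Of the genes whose change differed between media by a test of the difference, those named for its size have these values. Set against sufficient medium, the excess change was higher by 2.02 for Insig1, 1.91 for Col25a1, 1.84 for Slc29a1 and 1.65 for Lum, and it differed by -2.18 for Id2, -2.06 for Entrep1, -1.92 for Id1 and -1.90 for Prnd. Set against deficient medium, it was higher by 2.35 for Col25a1, 1.95 for Insig1, 1.87 for Hsd11b1 and 1.87 for Slc29a1, and it differed by -2.82 for Myh2, -2.38 for Id2, -2.34 for Id1 and -2.18 for Rasl12. The 2 sets of differences share the excess arrays. Lum passed the filter on low values through the excess arrays. Entrep1 and Myh2 passed it through the sufficient and deficient arrays.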

How the results depend on the processing

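The count of genes that changed in excess medium (2106) stayed between 1562 and 2361 under the alternatives that kept both array series. It was 1340 within serials up to 45 and 637 within serials above 45, which hold 5 of the compared arrays each. Both fits used all arrays of their set, and the set above 45 is the smaller, so the 2 counts do not have equal power. Leaving out 1 excess array gave 1839 (without day 14 replicate 6) to 2043. The difference from sufficient medium (783 genes) came to 392 within serials up to 45, to 1532 with array weights and to 1575 without the 3 sufficient arrays that stand apart, an alternative added after seeing the data, and to 618 to 964 when 1 array was left out. The difference from deficient medium (1341 genes) came to 974 within serials up to 45, to 2120 with array weights and to 1085 to 1490 when 1 array was left out. It came to 1850 without 2 deficient arrays (also added after seeing the data). With a replicate block the 3 counts were 1979, 618 and 1092. Whether the replicate numbers pair the arrays could not be told, and the block was not made the main design. Of 112 called results for named genes, 83 kept call and sign in every setting (25 for the main comparison, 34 for each difference), 29 lost the call in at least 1, and the causes were not tested. Only Nolc1 reversed, to -0.04 with its probe set of largest variance. Of 42 list medians 14 changed sign in at least 1 setting. The median of mitosis stayed between -0.76 and -0.69 and that of sterol synthesis between 0.29 and 0.41. Low signal limits Abcg1, Atoh8, Col14a1, Dhrs3, Entrep1, Igf2, Lum, Myh2, Myod1, Slc19a1, Slc29a1, Sulf1, Tnc and Trpc1, whose mean was below 4 at day 21 or day 14 in excess medium.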
